A study of Mus musculus with 25 samples.

Results

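Immunoglobulin variable (V) gene segments were followed in bulk RNA from mouse distal colon. Members were the gene rows whose mouse symbol starts with Ighv (heavy chain), Igkv (kappa light chain) or Iglv (lambda light chain) and whose mean over all 25 libraries was at least 1 FPKM, a unit of fragments scaled to transcript length and library size. Of 348 V segment rows among 49452 gene rows, 161 met the rule: 80 of 185 heavy chain rows, 78 of 160 kappa rows and all 3 lambda rows. By the GENCODE annotation 160 members are V genes and 1, Igkv3-11, is a pseudogene. Another 101 V rows were listed at 0 in every library.

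The mice were on the C57BL/6 background, 6 weeks old and kept specific-pathogen-free, with 5 mice per genotype as biological replicates. Nemofl/fl mice carry floxed Nemo (the gene Ikbkg) and served as controls. NEMOIEC-KO mice lack NEMO, a regulator of the kinase complex that activates NF-κB, in intestinal epithelial cells, and develop colitis. The 3 double mutant groups add the loss of a cytokine subunit to the same epithelial deletion: NEMOIEC-KO Il12b-/- (no p40, the subunit that IL-12 and IL-23 share), NEMOIEC-KO Il12a-/- (no p35, the IL-12 subunit) and NEMOIEC-KO Il23a-/- (no p19, the IL-23 subunit). The labels name neither the Cre line nor the form of the cytokine alleles. The comparisons ask how each loss changes the colonic response of NEMOIEC-KO mice. Comparisons against one group share that group's libraries.

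A V segment is a germline piece of an immunoglobulin gene. In a developing B cell the RAG recombinase joins a single V segment per chain, with D and J pieces for the heavy chain and a J piece for a light chain, and the joined exon is spliced to a constant region. A clone of B cells or plasma cells therefore transcribes mainly the segments it rearranged, so V segment RNA in a tissue reflects which clones are there and how much antibody RNA each makes. In the gut most antibody RNA comes from plasma cells of the lamina propria, which secrete IgA joined by the J chain. Mouse B cells use kappa far more than lambda light chains, and the mouse has few lambda V segments.

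Sequences are shown first for some of the segments on which the later results turn, from GENCODE vM21 transcripts on GRCm38. The lambda pair Iglv1 (chr16:19085017-19085500, minus strand) and Iglv2 (chr16:19260401-19260859, minus strand) is shown from base 52 to base 351 of the coding sequence, because these genes carry the lambda result and are near copies. Over all 351 bases they differ by 11 substitutions without a gap (96.9% identity), and capitals in Iglv2 mark the 8 of them that fall in the stretch shown.
Iglv1: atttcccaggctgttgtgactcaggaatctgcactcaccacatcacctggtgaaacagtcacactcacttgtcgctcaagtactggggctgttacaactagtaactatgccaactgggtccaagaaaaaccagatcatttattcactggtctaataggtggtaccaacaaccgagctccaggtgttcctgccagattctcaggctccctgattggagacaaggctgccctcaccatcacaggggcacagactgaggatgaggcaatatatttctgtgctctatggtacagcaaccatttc
Iglv2: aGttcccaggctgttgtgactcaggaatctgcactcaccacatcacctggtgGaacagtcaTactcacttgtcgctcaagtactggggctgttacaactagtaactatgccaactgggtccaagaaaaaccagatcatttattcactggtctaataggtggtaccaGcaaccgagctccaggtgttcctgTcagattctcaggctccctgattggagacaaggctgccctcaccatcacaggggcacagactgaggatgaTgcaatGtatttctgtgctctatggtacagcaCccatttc
Iglv3, the remaining lambda segment (chr16:19241207-19241690, minus strand), was only 57.6% identical to Iglv1. Reads that span one of the differing bases can tell Iglv1 from Iglv2, and reads between them cannot.

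For some of the 15 heavy and 11 kappa segments that led libraries, the last 120 bases of the coding sequence are shown. This is the end at which V joins D or J. Capitals mark the last in-frame cysteine codon. Its residue forms the disulfide bridge of the V domain and marks the start of the third complementarity-determining region. Ighv1-53 (chr12:115158403-115158835), Ighv1-26 (chr12:114788372-114788805) and Ighv1-82 (chr12:115952538-115953005) lie on the minus strand and belong to the Ighv1 family. Igkv10-96 (chr6:68631963-68632442) and Igkv5-39 (chr6:69900424-69900977) lie on the minus strand, and Igkv1-110 (chr6:68270485-68271267) on the plus strand.
Ighv1-53: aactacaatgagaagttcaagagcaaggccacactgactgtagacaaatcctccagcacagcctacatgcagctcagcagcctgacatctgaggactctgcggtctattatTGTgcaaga
Ighv1-26: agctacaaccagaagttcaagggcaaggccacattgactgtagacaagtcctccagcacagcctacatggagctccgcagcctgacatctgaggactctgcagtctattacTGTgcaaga
Ighv1-82: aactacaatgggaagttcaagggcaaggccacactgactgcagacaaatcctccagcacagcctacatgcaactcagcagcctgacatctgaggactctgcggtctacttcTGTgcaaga
Igkv10-96: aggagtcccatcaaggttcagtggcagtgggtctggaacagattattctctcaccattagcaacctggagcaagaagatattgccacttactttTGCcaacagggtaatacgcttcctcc
Igkv1-110: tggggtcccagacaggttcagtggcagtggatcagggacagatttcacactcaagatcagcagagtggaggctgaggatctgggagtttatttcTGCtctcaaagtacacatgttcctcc
Igkv5-39: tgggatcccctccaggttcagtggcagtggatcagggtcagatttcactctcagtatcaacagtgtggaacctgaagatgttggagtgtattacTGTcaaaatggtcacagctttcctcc
All 160 members with a coding sequence had such a codon in frame within the last 45 bases. The heavy members span chr12:113588267-116000461, all 80 on the minus strand. The kappa members span chr6:67555497-70699067, with 48 on the minus and 30 on the plus strand, and the lambda members span chr16:19085017-19260859.

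Relative depth ran from 0.700 to 1.16 of the median library, and absolute depth is unknown because counts were not used here. The library codes in the labels are not described as batches: K002000081 stands on every control library and on NEMOIEC-KO replicates 3, 4 and 5, K002000080 on Il23a-/- replicate 5 alone, and K002000079 on the rest. No double mutant library thus shares a code with a control, and between them genotype and code cannot be told apart. Ikbkg averaged 9.08 FPKM in Nemofl/fl and between 3.34 and 4.08 FPKM in the 4 groups with the epithelial deletion. Il12b RNA was higher, not lower, in the libraries labelled Il12b-/- (0.994 FPKM against 0.171 in NEMOIEC-KO), and Il12a RNA was higher in those labelled Il12a-/- (1.20 against 0.421 FPKM). Gene totals do not show whether the reads lie inside or outside a deleted part, so these values do not check the alleles. Il23a averaged 0.214 FPKM in the libraries labelled Il23a-/- and 0.311 FPKM in NEMOIEC-KO. The colon label fits the epithelial markers: all 12 were above 0 in every group, with Muc2, the main goblet cell mucin, at 984 FPKM in Nemofl/fl. Nemofl/fl replicate 1 stood apart from the other controls in V segment level and had the lowest smooth muscle markers of them. Il12a-/- replicate 1 had the lowest smooth muscle markers and the highest V level of its group, where replicate 5 had the next highest V level. V totals are given with and without each of these replicate 1 libraries.

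Summed over the 161 members, V segment RNA was highest in NEMOIEC-KO and lowest in Nemofl/fl. Nemofl/fl totals were 2770, 432, 495, 599.6 and 538 FPKM in replicates 1 to 5, a mean of 967 ± 1010 FPKM (SD, n = 5). NEMOIEC-KO totals were 2228, 10349, 5843, 3052 and 2690 FPKM, a mean of 4832 ± 3391 FPKM (SD, n = 5). The NEMOIEC-KO mean was 5.00 times that of Nemofl/fl, yet the groups overlapped, because Nemofl/fl replicate 1 exceeded NEMOIEC-KO replicates 1 and 5. Without Nemofl/fl replicate 1 the control mean was 516 ± 70.5 FPKM (SD, n = 4), the ratio was 9.36 and every NEMOIEC-KO library lay above every control. NEMOIEC-KO replicate 2 was far above its group, and without it the group mean was 3453 ± 1628 FPKM (SD, n = 4). On average V segments made up 0.145% of a control library's summed FPKM and 0.700% of that of a NEMOIEC-KO library. The control share was 0.417% in replicate 1 and averaged 0.0765% over the other 4. In bulk tissue, fewer plasma cells and less antibody RNA per cell cannot be told apart.

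The double mutants fell between these groups, with wide spread. Il12b-/- double mutants had totals of 1470, 1483, 2009, 3666 and 2149 FPKM, a mean of 2155 ± 898 FPKM (SD, n = 5). Il12a-/- double mutants had 3547, 736, 526, 603 and 2389 FPKM, a mean of 1560.3 ± 1351 FPKM (SD, n = 5). Il12a-/- replicates 2 to 4 were close to the 4 low controls, while replicates 1 and 5 lay in the NEMOIEC-KO range. Il23a-/- double mutants had 2861, 1570.0, 2635, 4889 and 5194 FPKM, a mean of 3430 ± 1554 FPKM (SD, n = 5). Relative to the NEMOIEC-KO mean the ratios were 0.446 for Il12b-/-, 0.323 for Il12a-/- and 0.71 for Il23a-/-, and each of these groups overlapped NEMOIEC-KO. Without its replicate 1, the Il12a-/- mean was 1064 ± 888 FPKM (SD, n = 4). No test was run on these sums, since the members were chosen with results of these data known.

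**Figure D1:**
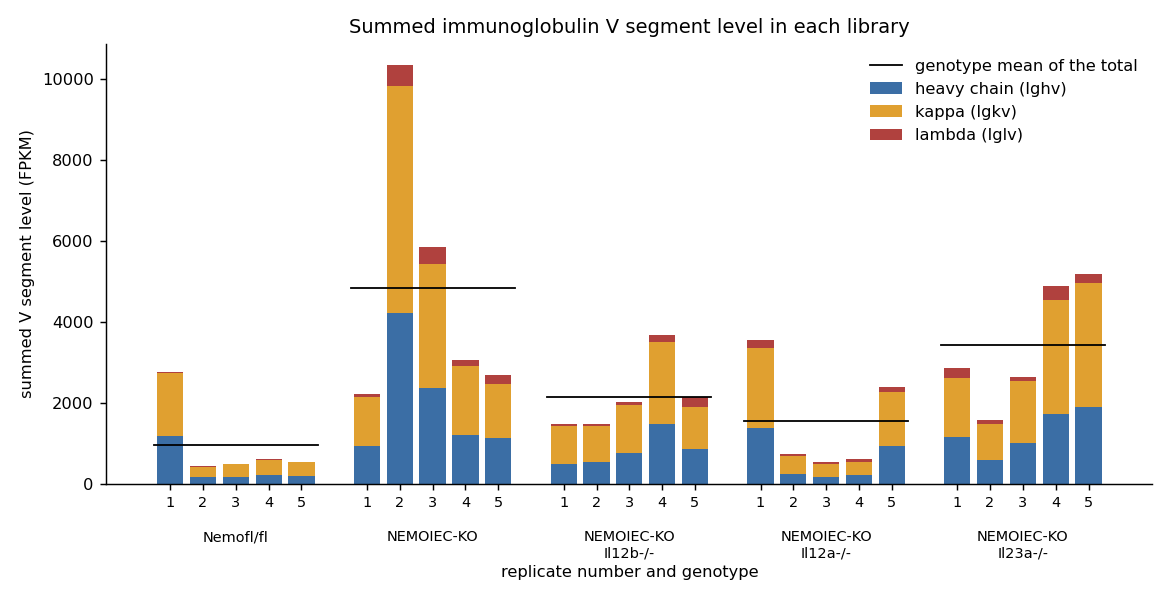
Summed FPKM of the 161 V segments in each library (stacked bars from 0 for the heavy, kappa and lambda loci), by genotype, with the genotype mean of the total as a black line. NEMOIEC-KO libraries run from 2228 to 10349 FPKM, and 4 of 5 Nemofl/fl libraries lie between 432 and 599.6 FPKM.

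Heavy, kappa and lambda segments were not higher by the same ratio. Mean heavy chain V RNA was 385 FPKM in the controls and 1966 FPKM in NEMOIEC-KO, while the double mutants had 825 (Il12b-/-), 588 (Il12a-/-) and 1275 FPKM (Il23a-/-). Mean kappa V RNA was 565, 2592, 1217, 882 and 1956 FPKM in the same order. Mean lambda V RNA was 17.4, 274, 113, 89.8 and 199 FPKM, which put NEMOIEC-KO at 15.8 times Nemofl/fl. Without Nemofl/fl replicate 1 the control means were 185 FPKM for heavy, 319 FPKM for kappa and 12.5 FPKM for lambda segments, and the lambda ratio was 22.0. The heavy chain share of all V RNA stayed between 32.4% and 42.7% in all 25 libraries.

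Other cell markers varied as well, not all of them in the direction of the V totals, and their part in the result was not tested. All 20 plasma cell markers were found, and their summed level was 625 to 839.6 FPKM among the controls and 927 to 1502 FPKM among NEMOIEC-KO libraries. Double mutants had 870 to 1007 (Il12b-/-), 701 to 1207 (Il12a-/-) and 930 to 1444 FPKM (Il23a-/-). The 14 smooth muscle markers ran the other way, from 4179 to 14530 FPKM in the controls and from 2215 to 6716 FPKM with the epithelial deletion alone, with 2641 to 11790 in Il12b-/-, 3093 to 14840 in Il12a-/- and 2497 to 7852 in Il23a-/-. Nemofl/fl replicate 1, with the highest V total of the controls, had 4179 FPKM of smooth muscle markers against 8767 to 14525 in the other controls. Il12a-/- replicate 1, with the highest V total of its group, had 3093 against 7759 to 14836. Il23a-/- replicate 2 had the most of these markers in its group (7852 against 2497 to 3676 FPKM) and the lowest V total (1570.0 FPKM). Some other libraries did not follow this opposite direction. Il12b-/- replicate 2 had 2641 FPKM of smooth muscle markers and a low V total of 1483 FPKM. Il12a-/- replicate 5 had 9910 FPKM of these markers and a V total of 2389 FPKM, while replicate 4 had 7759 and 603 FPKM. Il23a-/- replicate 1 had the fewest of its group (2497 FPKM) with a V total of 2861 FPKM, below that of replicate 5 (3676 and 5194 FPKM). The 17 B cell markers summed to 32.2 to 105 FPKM in the controls and 45.8 to 100.1 FPKM in NEMOIEC-KO, and Nemofl/fl replicate 1, with the most V RNA of the controls, had the fewest B cell markers (32.2 FPKM). No plasma cell, B cell or smooth muscle marker was at 0 throughout any group.

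Constant region genes, to which V segments are spliced, were higher in NEMOIEC-KO as well. Of 23 constant and joining genes listed, the 11 J segments were at 0 in every library and 12 constant genes were tested in limma. Of these 12, 10 rose in NEMOIEC-KO against Nemofl/fl and none fell (median log2 difference 2.40), where 11.9% of all 19266 genes tested were called higher. Igha, the IgA heavy chain, went from a mean of 514 to 3007 FPKM, a log2 difference of 2.54 (adjusted p = 0.00053 by limma with Benjamini-Hochberg adjustment). Igkc, the kappa constant region, went from 1055 to 4922 FPKM (log2 difference 2.14, limma adjusted p = 0.0019). Jchain, which links IgA into dimers, went from 62.5 to 283 FPKM (log2 difference 2.30, limma adjusted p = 0.0013), with a control mean of 40.03 FPKM without Nemofl/fl replicate 1. Ighm, the IgM heavy chain, rose from 19.4 to 55.6 FPKM (log2 difference 1.36, limma adjusted p = 0.021), a call lost without Nemofl/fl replicate 1, NEMOIEC-KO replicate 2 or NEMOIEC-KO replicate 3 (largest adjusted p 0.075). Ighd, the IgD heavy chain of naive B cells, showed a log2 difference of 0.01 (limma adjusted p = 0.99). Across all 25 libraries kappa V RNA was 0.439 of Igkc RNA on average (range 0.278 to 0.722, highest in Nemofl/fl replicate 1), and total V RNA was 14.4 times Jchain RNA (10.2 to 21.7), so V and constant levels moved within narrower bounds of each other than either did across libraries.

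The lambda share of light chain V RNA was higher in NEMOIEC-KO than in the controls. The share was 2.34%, 3.62%, 5.20%, 3.03% and 3.36% in Nemofl/fl replicates 1 to 5 (mean 3.51% ± 1.06, SD, n = 5). NEMOIEC-KO libraries had 6.25%, 8.49%, 11.8%, 7.46% and 14.2% (mean 9.63% ± 3.27, SD, n = 5). Every NEMOIEC-KO library was above every control, including Nemofl/fl replicate 1, whose V total was high but whose lambda share was the lowest of all. Il12a-/- double mutants had 8.76%, 9.78%, 9.90%, 15.3% and 7.99% (mean 10.3% ± 2.86, SD, n = 5), and Il23a-/- double mutants 14.0%, 10.1%, 5.41%, 10.7% and 7.04% (mean 9.44% ± 3.34, SD, n = 5). Both groups also lay wholly above the controls, although the Il12a-/- group had low V totals in 3 of its libraries. Neither group shares a library code with the controls, so genotype and code cannot be told apart here. Il12b-/- double mutants had 4.20%, 5.55%, 5.15%, 7.06% and 19.6% (mean 8.30% ± 6.38, SD, n = 5). That mean rested on replicate 5, without which it was 5.49% ± 1.19 (SD, n = 4), and the group overlapped the controls.

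Constant regions gave a less clear split. The lambda share of light chain constant RNA (Iglc1, Iglc2 and Iglc3 over these plus Igkc) was 2.96%, 7.89%, 5.77%, 3.72% and 4.53% in Nemofl/fl and 5.60%, 6.73%, 9.67%, 6.47% and 13.6% in NEMOIEC-KO. Group means were 4.97% ± 1.93 and 8.42% ± 3.29 (SD, n = 5 each), and the groups overlapped. Means were 9.27% ± 7.08 in Il12b-/-, 11.1% ± 4.19 in Il12a-/- and 7.95% ± 2.70 in Il23a-/- double mutants (SD, n = 5 each). The separation of NEMOIEC-KO from Nemofl/fl in lambda share was thus seen in the V segments and not in the constant regions.

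**Figure D2:**
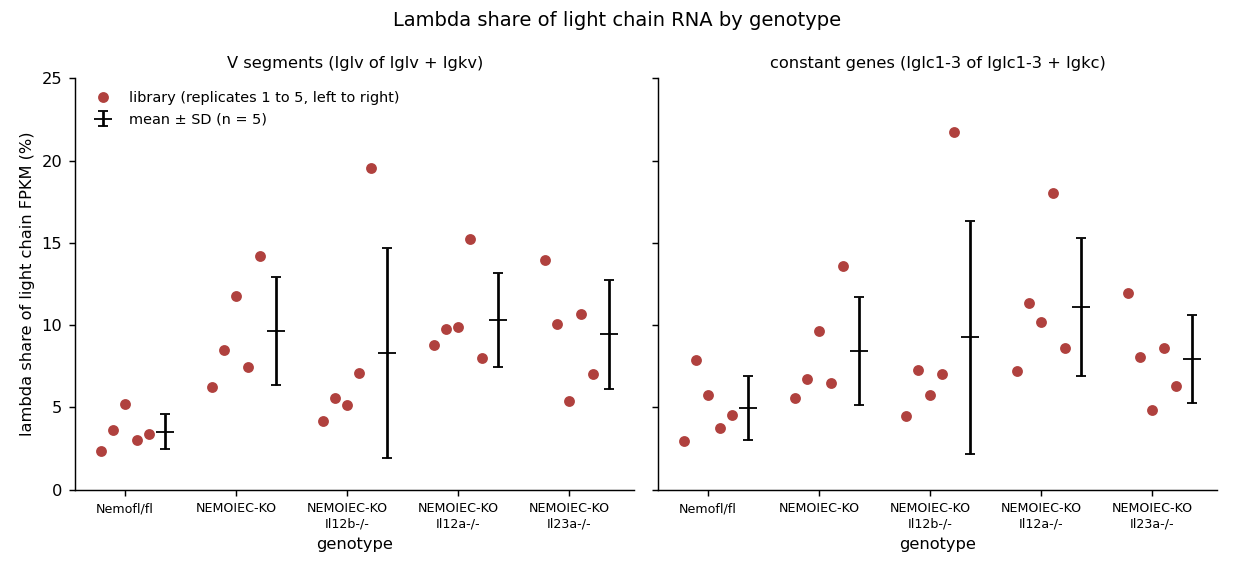
Lambda share of light chain RNA in percent, from V segments (left) and from constant regions (right), with 1 point per library and the mean ± SD of 5 libraries per genotype. The V share of every NEMOIEC-KO library (6.25% or more) is above every Nemofl/fl library (5.20% or less), while the constant region shares of these groups overlap.

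Iglv1 led the lambda locus in all 25 libraries, with 59.5% to 95.7% of lambda V RNA. It was at 34.0, 8.01, 11.0, 10.7 and 8.20 FPKM in Nemofl/fl and at 54.2, 410.3, 247, 115 and 187 FPKM in NEMOIEC-KO. All NEMOIEC-KO libraries were above all controls, with a log2 difference of 3.70 ± 0.59 (SE, limma adjusted p = 0.00014, n = 5 per group). Il12b-/- double mutants had 33.2, 35.1, 47.9, 106 and 243 FPKM, Il12a-/- had 159, 40.9, 27.4, 55.9 and 68.8 FPKM, and Il23a-/- had 221, 85.2, 68.6, 243 and 199 FPKM. Against NEMOIEC-KO the log2 differences of Iglv1 were -1.27 for Il12b-/- (limma adjusted p = 0.13), -1.48 for Il12a-/- (0.11) and -0.19 for Il23a-/- (0.97), none past the threshold of 0.05.

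Iglv2 showed the largest difference of any V segment called between NEMOIEC-KO and Nemofl/fl. The controls had 2.16, 1.14, 2.66, 0.223 and 2.29 FPKM, and NEMOIEC-KO had 26.0, 105, 150.5, 20.3 and 34.1 FPKM, without overlap. The log2 difference was 4.68 ± 0.71 (SE, limma adjusted p = 8.3e-05), and it held in each of 20 alternative analyses. Il12a-/- double mutants had 25.9, 4.57, 7.11, 2.31 and 41.9 FPKM of Iglv2, lower than NEMOIEC-KO by a log2 difference of -2.26 ± 0.71 (SE, limma adjusted p = 0.047). The ranges overlapped, and this call was lost in 10 of 20 alternatives, in which the adjusted p ran from 0.015 to 0.26; the losing ones included leaving out NEMOIEC-KO replicate 2, 3 or 5 or Il12a-/- replicate 2, 3 or 4. Il12b-/- double mutants had 7.17, 11.6, 13.0, 43.5 and 9.58 FPKM (log2 difference to NEMOIEC-KO -1.82, limma adjusted p = 0.072), and Il23a-/- had 14.2, 13.4, 17.0, 85.6 and 27.6 FPKM (-1.03, 0.68). Iglv3 was low in every group, at 0.723 to 3.05 FPKM in Nemofl/fl and 0.816 to 11.1 FPKM in NEMOIEC-KO (log2 difference 1.11 ± 0.59, limma adjusted p = 0.15).

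Iglv2 and Iglc2, one of the lambda constant genes, peaked in the same libraries. The 5 libraries with the most Iglv2 were, in the same order, the 5 with the most Iglc2. NEMOIEC-KO replicate 3 had 150.5 FPKM of Iglv2 and 313 FPKM of Iglc2, NEMOIEC-KO replicate 2 had 105 and 173, and Il23a-/- replicate 4 had 85.6 and 168. Iglv1 and the sum of Iglc1 and Iglc3 shared their highest library, NEMOIEC-KO replicate 2, but not the order after it: NEMOIEC-KO replicate 3 ranked second for Iglv1 (247 FPKM) and sixth for that sum (373 FPKM). The high lambda share of Il12b-/- replicate 5 came with 243 FPKM of Iglv1 and 516 FPKM of Iglc1. That of NEMOIEC-KO replicate 5 came with 278 FPKM of Iglc3, against 60.0 of Iglc1 and 70.3 of Iglc2. Iglc1, Iglc2 and Iglc3 all rose in NEMOIEC-KO against Nemofl/fl, with log2 differences of 2.77, 2.88 and 2.44 (limma adjusted p = 0.0014, 0.0006 and 0.008).

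Segment by segment, NEMOIEC-KO was above Nemofl/fl almost throughout. Of the 161 members, 160 passed the filter of at least 0.2 FPKM in at least 5 libraries and were tested. Ighv8-6 did not pass: its mean of 3.57 FPKM came from 5 libraries, with 30.9 FPKM in Il12b-/- replicate 2. Of the 160 tested, 60 rose and 0 fell, which is 37.5% against 11.9% of all genes called higher and 20.3% called lower. Members were chosen by their mean over these same libraries, so a segment can be a member only through NEMOIEC-KO. All genes were not chosen that way, so the larger share of the members is a description and no test. The limma log2 difference was positive for 157 members and negative for 3, with a median of 1.83, where the median over all genes tested was -0.08. In 16 members every NEMOIEC-KO library was above every control, and no such count was made over all genes. Without NEMOIEC-KO replicate 2 the count of called members was 34. At an unadjusted p below 0.05 there were 83 members. Here and below, no share of all genes was computed at that unadjusted threshold.

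Called segments came from all 3 loci, with 30 of 79 heavy segments (median log2 difference 2.03), 28 of 78 kappa segments (median 1.72) and 2 of 3 lambda segments called higher. Within families, 10 of 42 Ighv1 segments rose, 4 of 6 Ighv2, 5 of 7 Ighv5, 8 of 21 Igkv4, 3 of 6 Igkv8 and 2 of 7 Igkv1. The spread behind these tests was wide: the median residual SD of the members was 1.43 on the log2 scale, against 0.231 for all genes tested. The median SE of a difference was 0.851, against 0.145 for all genes tested.

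Igkv4-57 (chr6:69575975-69576500, minus strand) was the kappa segment with the largest called difference. It was at 6.73, 4.70, 9.05, 3.14 and 0.743 FPKM in Nemofl/fl and at 126, 191, 60.3, 38.7 and 25.2 FPKM in NEMOIEC-KO. The groups were apart, with a log2 difference of 3.96 ± 0.79 (SE, limma adjusted p = 0.00098). Igkv4-80, of the same family, was at 2.62, 0.687, 1.12, 1.48 and 0 FPKM in Nemofl/fl and at 38.0, 25.2, 7.23, 51.3 and 9.52 FPKM in NEMOIEC-KO, again apart (log2 difference 3.87 ± 0.92, limma adjusted p = 0.0035). Both calls held in all 20 alternatives.

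Ighv1-53, the heavy segment with the highest mean, was at 30.5, 4.95, 3.31, 12.2 and 9.09 FPKM in Nemofl/fl and at 24.9, 514, 414, 58.2 and 37.0 FPKM in NEMOIEC-KO. Only NEMOIEC-KO replicate 1 fell inside the control range, and the log2 difference was 3.44 ± 0.76 (SE, limma adjusted p = 0.002). Igkv10-96, the kappa segment with the highest mean, was at 108, 21.6, 19.9, 18.9 and 22.3 FPKM in Nemofl/fl and at 201, 374, 459, 98.6 and 54.3 FPKM in NEMOIEC-KO (log2 difference 2.62 ± 0.76, limma adjusted p = 0.012). Its groups overlapped through Nemofl/fl replicate 1, and the call was lost among libraries of the code K002000081 alone (adjusted p 0.0048 to 0.059 over the alternatives). Igkv1-110 had 27.6, 36.3, 49.3, 10.1 and 8.89 FPKM in Nemofl/fl and 120.0, 192, 117, 40.4 and 63.8 FPKM in NEMOIEC-KO (log2 difference 2.09 ± 0.63, limma adjusted p = 0.015), a call also lost within that code (0.0093 to 0.072). Ighv1-80 was at 1.46 to 4.69 FPKM in the controls and at 7.93 to 67.3 FPKM in NEMOIEC-KO, without overlap (log2 difference 3.04 ± 0.85, limma adjusted p = 0.0097).

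Several of the most abundant segments did not pass the test. Ighv1-26 had 60.7, 23.1, 17.2, 24.1 and 6.48 FPKM in Nemofl/fl and 29.9, 425, 53.7, 19.2 and 57.8 FPKM in NEMOIEC-KO. NEMOIEC-KO replicate 2 was far above the rest and the other libraries overlapped the controls (log2 difference 1.51 ± 0.85, limma adjusted p = 0.18). Ighv1-82 had a log2 difference of 2.31 ± 0.89 (limma adjusted p = 0.052), Igkv4-59 of 1.22 (0.29), Igkv6-15 of 1.28 (0.21) and Igkv12-44 of 1.72 (0.18). Igkv6-15 was highest in NEMOIEC-KO replicate 2 (352 FPKM) and in Nemofl/fl replicate 1 (198 FPKM), with 6.22 to 26.5 FPKM in the other controls.

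**Figure D3:**
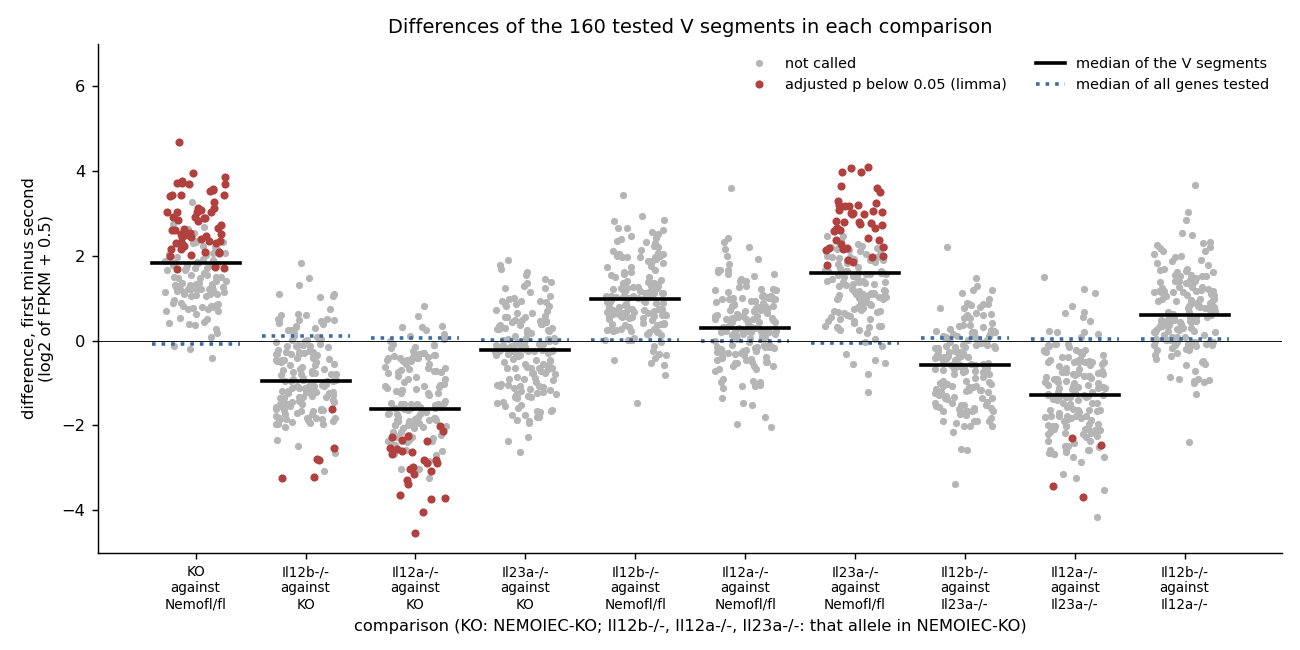
Log2 difference of each tested V segment (points, red where the limma adjusted p is below 0.05) in 10 comparisons, with the median over the segments as a black bar and the median over all genes tested as a dotted blue line. In NEMOIEC-KO against Nemofl/fl 60 of 160 segments are called higher around a median of 1.83, and in Il12a-/- against NEMOIEC-KO 26 are called lower around a median of -1.60.

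In the p40 comparison few segments were called, and their share did not exceed that of all genes. Against NEMOIEC-KO, 0 of 160 segments rose and 6 fell in the Il12b-/- double mutants, 3.75% against 5.94% of all genes called lower and 14% called higher. The median log2 difference was -0.95 against 0.11 over all genes. Of the 6, Igkv4-57 differed most. It was at 11.3, 3.84, 7.06, 5.92 and 7.21 FPKM in Il12b-/- libraries, all below the lowest NEMOIEC-KO library (25.2 FPKM), a log2 difference of -3.25 ± 0.79 (SE, limma adjusted p = 0.0067) that held in all 20 alternatives. Igkv4-72, Igkv4-86 and Igkv4-51 fell too, by 2.80, 2.53 and 1.62 on the log2 scale (limma adjusted p = 0.016, 0.018 and 0.041), and these 3 are named after their values were seen. Igkv4-51 is a member only through NEMOIEC-KO, since its mean of 1.00 FPKM over all libraries is 0.758 FPKM without NEMOIEC-KO replicate 2 (6.92 FPKM), so its lower level against that group supports nothing. Its call was lost in 10 of 19 alternatives (adjusted p 0.012 to 0.17).

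The other called segments were from the heavy locus. Ighv1-74 was at 0.271, 0.937, 1.81, 40.5 and 1.45 FPKM in Il12b-/- libraries and at 26.3, 27.0, 26.4, 4.53 and 146 FPKM in NEMOIEC-KO (log2 difference -3.23 ± 1.05, limma adjusted p = 0.034). Il12b-/- replicate 4 lay among the NEMOIEC-KO values, and the call was lost in 11 of 20 alternatives, over which the adjusted p ran from 0.0062 to 0.19. Ighv5-6 was at 4.25, 1.74, 3.70, 1.88 and 1.99 FPKM in Il12b-/- and at 2.03, 34.7, 209.7, 20.7 and 10.9 FPKM in NEMOIEC-KO (log2 difference -2.81 ± 0.89, limma adjusted p = 0.029). NEMOIEC-KO replicate 1 was within the Il12b-/- range, and the call was lost in 6 of 20 alternatives (0.0057 to 0.38). The count of called segments was 2 without NEMOIEC-KO replicate 2, 3 without replicate 3, and 11 without replicate 1 or without replicate 4. It was 3 within the code K002000079. Calls over all genes in these refits are not given here.

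Loss of p35 came with more called segments than loss of p40. Of 160 segments, 0 rose and 26 fell in Il12a-/- double mutants against NEMOIEC-KO, 16.2% against 4% of all genes called lower and 5.61% called higher. They comprised 16 heavy, 9 kappa and 1 lambda segment. In 13 of them every Il12a-/- library was below every NEMOIEC-KO library, a count not made over all genes. Segments can be members through high NEMOIEC-KO values, which favours calls lower than that group. The median log2 difference of the 160 was -1.60, against 0.07 over all genes. By family, 4 of 7 Ighv5, 5 of 42 Ighv1 and 2 of 21 Igkv4 segments fell. Whether the Il12a-/- and Il12b-/- groups differed from each other is given by their own comparison, in which 0 of 160 segments were called by limma and 25 had an unadjusted p below 0.05. Smooth muscle markers were not called in Il12a-/- against NEMOIEC-KO, with 0 of 14 past the threshold in limma but 11 higher at an unadjusted p below 0.05 (median 1.03), and their part in the result was not tested.

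Ighv1-78 (chr12:115868773-115869227, minus strand) was at 0.836, 0.194, 0.807, 10.7 and 0.399 FPKM in Il12a-/- and at 115, 84.7, 11.7, 32.0 and 20.8 FPKM in NEMOIEC-KO. The groups were apart, closely so for Il12a-/- replicate 4, with a log2 difference of -4.54 ± 0.87 (SE, limma adjusted p = 0.0041) that held in all 20 alternatives. Igkv8-27 (chr6:70171809-70172270, minus strand) was at 1.50, 1.79, 4.74, 0.825 and 1.93 FPKM in Il12a-/- and at 5.44, 117, 126, 17.1 and 62.9 FPKM in NEMOIEC-KO, also apart (log2 difference -4.06 ± 0.84, limma adjusted p = 0.0062). It was lost only within the code K002000079, with adjusted p from 0.002 to 0.17 over 20 alternatives. Ighv1-5 was at 4.34, 0.178, 2.13, 0.348 and 0.967 FPKM in Il12a-/- and at 1.09, 63.0, 62.9, 5.47 and 118 FPKM in NEMOIEC-KO (log2 difference -3.74 ± 1.09, limma adjusted p = 0.034). NEMOIEC-KO replicate 1 was in the Il12a-/- range, and the call was lost in 9 of 20 alternatives (0.011 to 0.33).

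Segments that were high in NEMOIEC-KO against Nemofl/fl were among those that fell. Ighv1-53 was at 50.7, 7.73, 7.70, 16.3 and 10.8 FPKM in Il12a-/- (log2 difference to NEMOIEC-KO -2.83 ± 0.76, limma adjusted p = 0.024), with Il12a-/- replicate 1 in the NEMOIEC-KO range. Igkv1-110 was at 108, 10.4, 14.4, 8.80 and 12.5 FPKM (log2 difference -2.35 ± 0.63, limma adjusted p = 0.023), and its replicate 1 again stood apart from the other 4. Igkv1-117 was at 25.8, 20.1, 12.6, 7.12 and 15.8 FPKM in Il12a-/- and at 31.3, 164, 20.6, 199 and 64.6 FPKM in NEMOIEC-KO (log2 difference -2.13 ± 0.53, limma adjusted p = 0.017). These calls were lost in 6, 7 and 3 of 20 alternatives, over which the adjusted p ran from 0.0046 to 0.17, from 0.00074 to 0.13 and from 0.0056 to 0.13. The comparison shares the NEMOIEC-KO libraries with that of NEMOIEC-KO against Nemofl/fl, so their values are not independent of each other.

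The number of segments called in Il12a-/- depended on single libraries. It was 57 without Il12a-/- replicate 1, the library with the highest V total and fewest smooth muscle markers of that group. It was 9 without Il12a-/- replicate 2, 12 without replicate 3 or without replicate 4, and 15 without replicate 5. Leaving out NEMOIEC-KO replicate 2 gave 9 and replicate 3 gave 13. Within the code K002000079, which keeps only NEMOIEC-KO replicates 1 and 2, it was 3. Calls over all genes in the same refits are not given here, so these swings are not shown to be particular to V segments.

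Loss of p19 was not accompanied by a called change in any V segment. In Il23a-/- double mutants against NEMOIEC-KO, 0 of 160 segments were called in either direction by limma (smallest adjusted p 0.17), with 11 at an unadjusted p below 0.05. In that comparison 0.0467% of all genes were called higher and 0.0363% lower, and the median log2 difference was -0.22 for the segments and 0.03 for all genes. Igkv4-57 was at 15.5, 7.65, 13.6, 26.6 and 121 FPKM in Il23a-/- libraries and Ighv1-53 at 86.2, 25.1, 106, 84.0 and 122 FPKM. The Ighv1-53 values lay within the NEMOIEC-KO range, and those of Igkv4-57 reached below it in 3 libraries. With a median SE of 0.851 on the log2 scale, the absence of calls does not show that the levels were alike.

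Set against Nemofl/fl, the double mutants differed in the number of segments called. No double mutant library carries the library code of the controls, so genotype and code cannot be told apart in these comparisons. In Il23a-/-, 45 segments rose and 0 fell (28.1%, against 12.6% of all genes called higher and 17% lower), with a median log2 difference of 1.60. Leaving out Il23a-/- replicate 4 gave 23. Every Il23a-/- library was above every control in 16 segments, and no such count was made over all genes. Iglv1 and Iglv2 were among the 45, with log2 differences of 3.51 and 3.65 (limma adjusted p = 0.00047 and 0.0015), both without overlap. In Il12b-/-, 0 of 160 segments were called by limma (smallest adjusted p 0.071, 38 at an unadjusted p below 0.05, median 0.99), where 0.249% of all genes were called higher and 0.119% lower. Leaving out Nemofl/fl replicate 1 or Il12b-/- replicate 1 gave 1. In Il12a-/-, 0 were called (smallest adjusted p 0.058, 12 at an unadjusted p below 0.05, median 0.31), where 0.773% of all genes were called higher and 0.571% lower. Leaving out Il12a-/- replicate 2 gave 1. The shares of all genes are at the adjusted threshold, so the unadjusted counts have no matching share beside them.

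Among the double mutants themselves, the Il12a-/- group had 4 segments lower than the Il23a-/- group and 0 higher, 2.5% against 0.763% of all genes called lower and 0.4% higher. These were Ighv6-3, Igkv8-27, Igkv1-117 and Igkv5-45, with log2 differences of -3.68, -3.44, -2.47 and -2.30 (limma adjusted p = 0.0091, 0.044, 0.022 and 0.025), of which Ighv6-3 and Igkv5-45 are named after their values were seen. The median log2 difference over the 160 was -1.28. The count was 33 without Il12a-/- replicate 1, 13 without Il23a-/- replicate 2, and 1 without any of Il12a-/- replicates 2, 3, 4 and 5 or Il23a-/- replicate 4. Calls over all genes in these refits are not given here. Igkv8-27 illustrates the contrast, at 0.825 to 4.74 FPKM in Il12a-/- and at 9.69, 5.81, 85.2, 34.2 and 60.2 FPKM in Il23a-/-, without overlap.

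Between Il12b-/- and Il23a-/- double mutants 0 segments were called by limma, with 15 at an unadjusted p below 0.05 and a median of -0.58, where 3.18% of all genes were called higher and 1.93% lower. Leaving out Il12b-/- replicate 2 or Il23a-/- replicate 2 gave 2, and leaving out Il23a-/- replicate 1 gave 1. Between Il12b-/- and Il12a-/- double mutants 0 were called by limma, with 25 at an unadjusted p below 0.05 and a median of 0.61, where 0.234% of all genes were called higher and 0.176% lower. Leaving out Il12a-/- replicate 1 gave 2, and leaving out Il12a-/- replicate 4 or Il12b-/- replicate 2 gave 1. The shares of all genes are at the adjusted threshold and do not match the unadjusted counts.

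In the heavy and kappa loci the leading segment differed from mouse to mouse, while Iglv1 led the lambda locus in all 25 libraries. The top heavy segment held 10.4%, 14.8%, 9.96%, 11.2% and 5.32% of heavy V RNA in Nemofl/fl, and was Ighv1-22, Ighv1-26, Ighv1-26, Ighv1-26 and Ighv9-3. In NEMOIEC-KO it held 12.4%, 12.2%, 17.5%, 10.7% and 13.0%, and was Ighv1-78, Ighv1-53, Ighv1-53, Ighv1-64 and Ighv1-74. All these NEMOIEC-KO leaders belong to the Ighv1 family, the largest by members. In Il12b-/- it held 9.66%, 9.19%, 16.3%, 15.2% and 11.1% (Ighv1-53, Ighv8-12, Ighv2-6, Ighv1-80 and Ighv2-2). In Il12a-/- it held 11.1%, 8.01%, 7.73%, 11.7% and 26.3% (Ighv2-9, Ighv1-74, Ighv1-82, Ighv1-81 and Ighv1-82). In Il23a-/- it held 8.47%, 7.36%, 10.5%, 4.99% and 11.9% (Ighv1-26, Ighv1-64, Ighv1-53, Ighv9-3 and Ighv5-9-1). Group means were 10.3% ± 3.40, 13.2% ± 2.56, 12.3% ± 3.26, 13.0% ± 7.68 and 8.64% ± 2.68 in the order Nemofl/fl, NEMOIEC-KO, Il12b-/-, Il12a-/-, Il23a-/- (SD, n = 5 each), and all groups overlapped. Without replicate 5 the Il12a-/- mean was 9.62% ± 2.04 (SD, n = 4).

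Kappa leaders were fewer. Igkv10-96 led in 10 of 25 libraries, Igkv1-110 in 4, and Igkv1-117 and Igkv4-59 in 2 each. The top kappa segment held 12.8%, 13.6%, 16.2%, 8.94% and 6.76% in Nemofl/fl (Igkv6-15, Igkv1-110, Igkv1-110, Igkv4-59 and Igkv10-96) and 16.5%, 6.66%, 15.0%, 11.6% and 7.82% in NEMOIEC-KO (Igkv10-96 in the first 3, then Igkv1-117 and Igkv4-74). In Il12b-/- it held 9.42%, 12.9%, 17.4%, 15.6% and 15.7%, with Igkv10-96 in replicates 1, 3 and 5 and Igkv1-110 in replicates 2 and 4. Il12a-/- leaders were Igkv10-96, Igkv4-55, Igkv10-96, Igkv4-57 and Igkv5-39, with 13.9%, 9.44%, 9.75%, 8.11% and 17.7%. Il23a-/- leaders were Igkv1-117, Igkv4-59, Igkv8-19, Igkv10-96 and Igkv12-44, with 11.4%, 9.07%, 8.52%, 4.98% and 13.1%. The group means ran from 9.40% in Il23a-/- to 14.2% in Il12b-/-, with SDs from 3.07 to 4.30 points, and all groups overlapped.

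**Figure D4:**
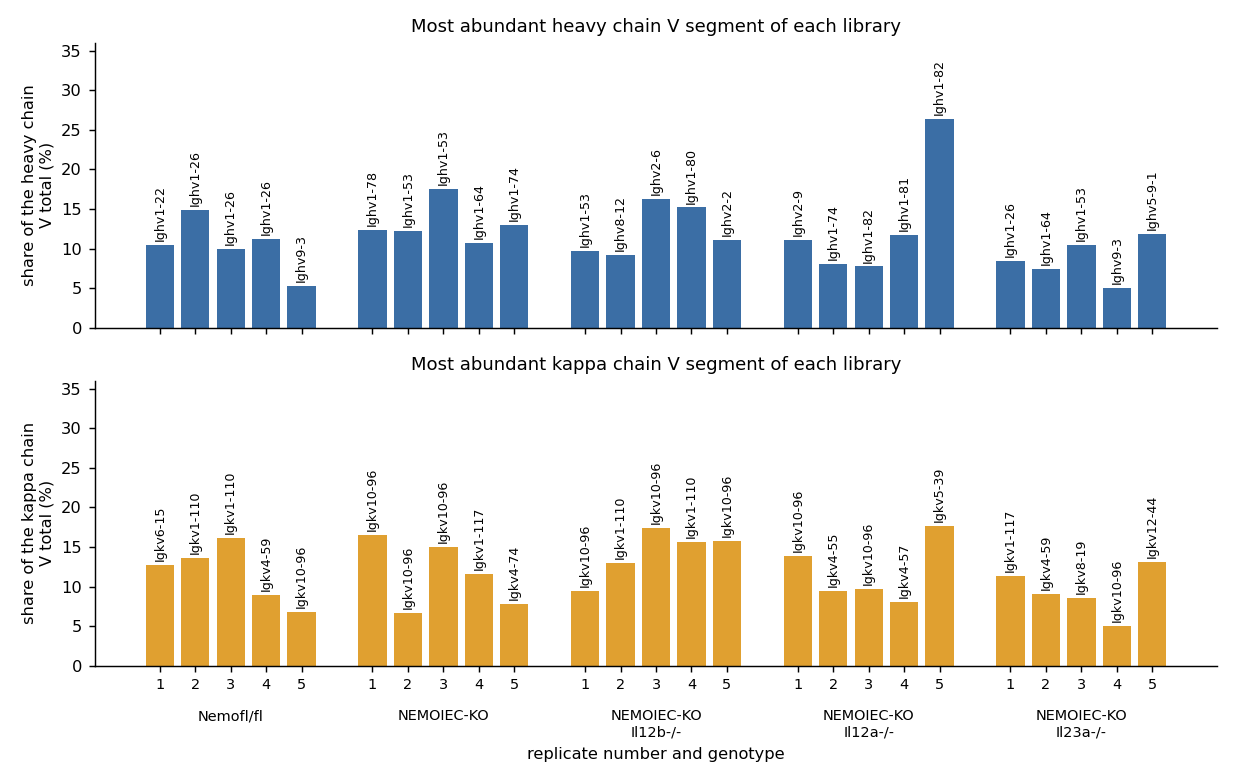
Share of heavy (top) and kappa (bottom) V segment RNA held by the first-ranked segment of each library, in percent from 0, with the segment's name on its bar. Il12a-/- replicate 5 stands highest in both loci, with 26.3% for Ighv1-82 and 17.7% for Igkv5-39.

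Il12a-/- replicate 5 was the most skewed library. Ighv1-82 was at 248 FPKM there and at 124, 4.75, 13.2 and 14.1 FPKM in the other Il12a-/- libraries. Igkv5-39 was at 235 FPKM there and at 1.56 to 8.53 FPKM in the other 4. Several further segments were also high in it, with Ighv1-26 at 134 FPKM, Ighv1-64 at 127 FPKM, Igkv4-59 at 17.0% of kappa and Igkv12-44 at 14.9% of kappa. The first 5 heavy segments together held 64.8% and the first 5 kappa segments 64.6%, against minima of 21.5% and 20.3% among the libraries. The effective number of segments, the inverse of the sum of squared shares, was 8.44 for heavy and 9.96 for kappa in this library. It reached 40.4 for heavy in Il23a-/- replicate 4 and 41.5 for kappa at the other end of the range.

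Averaged by group, the effective number of heavy segments was 27.0 in the controls and 21.6 in NEMOIEC-KO, and 24.0, 22.5 and 28.8 in the Il12b-/-, Il12a-/- and Il23a-/- double mutants. For kappa it was 24.6, 23.6, 20.9, 23.3 and 27.4 in the same order. The number of segments above 1 FPKM followed the total level, with means of 48.2 heavy and 53.2 kappa in Nemofl/fl and 67.8 and 67.2 in NEMOIEC-KO. In Il12a-/- the means were 49.4 and 56.4, in Il12b-/- 64.2 and 64.4, and in Il23a-/- 66.0 and 66.6. Groups with higher totals had more segments above that level, while their top shares overlapped those of the other groups.

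**Figure D5:**
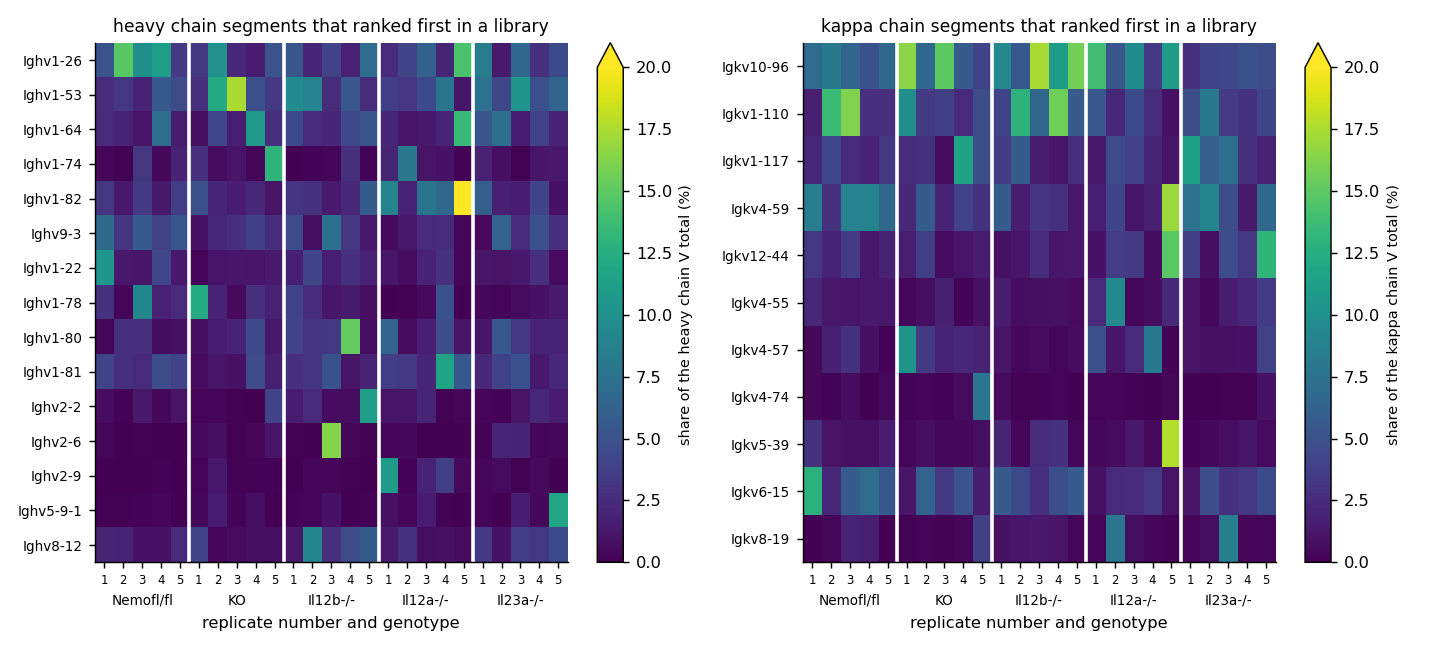
Within-locus share, in percent, of the 15 heavy and 11 kappa segments that ranked first in at least 1 of the 25 libraries (columns, where KO stands for NEMOIEC-KO), with the colour scale capped at 20%. Ighv1-53 and Ighv1-26 lead 4 libraries each and Igkv10-96 leads 10, and most other leaders are high in 1 or a few libraries.

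Segments were also summed by family. The 42 Ighv1 members held 60.4% of heavy V RNA on average (42.5% to 78.7% over the libraries), followed by Ighv5 with 6.08% from 7 members, Ighv2 with 5.64% from 6 and Ighv3 with 5.63% from 4. Among kappa families, the 21 Igkv4 members held 20.9% (9.22% to 29.7%), Igkv6 14.0% from 8 members, Igkv1 12.6% from 7 and Igkv10 10.0% from 2. Shares of single families varied between libraries, with Ighv2 from 1.34% to 19.6%, Ighv8 from 1.14% to 15.5% and Igkv5 from 0.847% to 18.5%.

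Many segments owed their level to single mice. Had every library contributed alike, each would hold 4% of a member's summed FPKM. The median member had 24.8% in its highest library, and 18 of 161 members had over 50% in 1 library. Ighv1-37 was the extreme, with 90.0% of its sum in NEMOIEC-KO replicate 2, where it was at 79.7 FPKM; its next values were 5.38 FPKM in Nemofl/fl replicate 3 and 1.32 FPKM in Il12a-/- replicate 4. Ighv1-49 had 81.6% in Il12b-/- replicate 4, Igkv4-62 79.1% in NEMOIEC-KO replicate 3 and Ighv15-2 78.5% in NEMOIEC-KO replicate 2; these 4 are named after their values were seen. Ighv2-6, the first heavy segment of Il12b-/- replicate 3, was at 124 FPKM there and at 0.353 to 3.57 FPKM in the other 4 libraries of that genotype. In 59 members the highest within-locus share was at least 10 times the median share. Even so, 105 members were above 0 in all 25 libraries.

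Repertoires of mice with the same genotype were little more alike than those of mice with different genotypes. The overlap of a pair, the sum over segments of the smaller within-locus share, had a median of 53.7% over 50 same-genotype pairs and 50.1% over 250 other pairs for heavy segments, and of 58.0% and 55.5% for kappa segments. Pairs share libraries, so no test was made. Within genotypes the heavy median ran from 44.0% in Il12a-/- to 57.5% in Nemofl/fl, with 47.2% in NEMOIEC-KO, and the kappa median from 50.9% in Il12a-/- to 65.1% in Nemofl/fl. The most alike pairs crossed genotypes: Il12a-/- replicate 3 and Il23a-/- replicate 4 shared 65.8% of heavy use, and NEMOIEC-KO replicate 2 and Il23a-/- replicate 5 shared 71.6% of kappa use.

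The genes that build and secrete antibody were set beside the segments. In NEMOIEC-KO against Nemofl/fl, 13 of 20 plasma cell markers rose and 0 fell (median log2 difference 0.82). Over all genes tested in this comparison, 11.9% were called higher and 20.3% lower. After Jchain, the largest were Mzb1, a chaperone that assists antibody folding (mean 3.56 to 15.9 FPKM, log2 difference 1.92, limma adjusted p = 0.00075), and Derl3, of the endoplasmic reticulum degradation machinery (log2 difference 1.67, limma adjusted p = 0.0024). Prdm1, the plasma cell transcription factor Blimp-1, rose by 1.51 on the log2 scale (limma adjusted p = 0.00035). Sdc1, also made by epithelium, had a log2 difference of 0.03 (limma adjusted p = 0.85). Of 17 B cell markers, 0 were called by limma (1 at an unadjusted p below 0.05, median 0.27, largest for Cd79a, a B cell receptor subunit, at 0.74 with adjusted p = 0.29). T cell markers rose in 18 of 19 tested (median 1.30) and smooth muscle markers fell in 11 of 14 (median -1.16).

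Genes that assemble or mutate V segments were set beside them too. Of 18 listed, 13 passed the filter, and 0 rose and 3 fell in NEMOIEC-KO against Nemofl/fl: Xrcc4, Xrcc5 and Prkdc, broadly expressed genes of DNA end joining, with log2 differences of -0.35, -0.31 and -0.23 (limma adjusted p = 0.033, 0.013 and 0.047). These 3 of 13 are near the 20.3% of all genes called lower in this comparison. The Prkdc call was lost in 14 of 19 alternatives (largest limma adjusted p 0.26). The Xrcc4 call was lost in 8 of 20 (0.13) and the Xrcc5 call in 1 of 20 (0.14). Rag1 and Rag2, the recombinase, were listed at 0 in every Nemofl/fl library, and both were too low in all groups to be tested.

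Against NEMOIEC-KO, 0 of 12 constant genes were called in Il12b-/- or Il12a-/- by limma (median log2 differences -0.58 and -0.65, with 1 and 4 at an unadjusted p below 0.05), while 4 and 2 of 20 plasma cell markers fell and 1 and 0 rose. Over all genes tested, 5.94% and 4% were called lower in these comparisons, and 14% and 5.61% higher. Prdm1 fell in both, with log2 differences of -1.62 and -1.23 (limma adjusted p = 0.00032 and 0.0088). Jchain fell in Il12a-/- (log2 difference -1.54, limma adjusted p = 0.044), a call lost in 12 of 20 alternatives (adjusted p 0.0047 to 0.21). The summed B cell markers were 52.3 to 327 FPKM in Il12b-/- and 113 to 229 in Il12a-/-, against 45.8 to 100.1 in NEMOIEC-KO. In these double mutants 0 and 1 of 17 were called higher by limma, and 5 and 13 had an unadjusted p below 0.05. The called gene was Fcer2a, the low affinity IgE receptor CD23, at a log2 difference of 1.69 in Il12a-/-. That call was lost in 12 of 20 alternatives (limma adjusted p 0.014 to 0.29). Every Il12a-/- library had more summed B cell marker RNA than every NEMOIEC-KO library, while 26 V segments were lower. Other cell markers moved as well, and their part in the segment results was not tested. In Il12b-/- against NEMOIEC-KO 7 of 19 T cell markers fell and 0 rose, with Cd3g, a T cell receptor complex subunit, at a log2 difference of -1.25 (limma adjusted p = 0.0083). Of 12 epithelial markers 5 fell and 1 rose there, with Krt20, a keratin of differentiated epithelium, at -0.96 (limma adjusted p = 0.00026). In Il12a-/- 1 of 19 T cell markers (Cd8a) and 4 of 12 epithelial markers fell and 0 rose. The Cd8a call was lost in 8 of 19 alternatives (limma adjusted p 0.014 to 0.23). The summed T cell markers were 60.6 to 148 FPKM in NEMOIEC-KO, 43.7 to 109.9 FPKM in Il12b-/- and 65.9 to 93.5 FPKM in Il12a-/-. The summed epithelial markers were 12700 to 15500, 13390 to 15590 and 12720 to 14050 FPKM. In Il23a-/- double mutants 0 of 107 listed genes were called by limma, with 5 at an unadjusted p below 0.05.

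Near-identical copies limit what a single segment's value means. The median identity of a member to its most similar V row was 95.4% for heavy and 95.1% for kappa segments, and 42 of 80 heavy and 39 of 78 kappa members had a neighbour at 95% or more. Among closely similar pairs, the levels of some differed widely and those of others less. Ighv1-72 averaged 14.2 FPKM and Ighv1-62-3, 99.1% identical, averaged 0.00718 FPKM. Igkv6-20 averaged 20.6 FPKM against 0.0782 for Igkv6-29 (98.6% identical), and Igkv5-43 averaged 29.2 FPKM against 1.51 for Igkv5-45 (98.6% identical). Smaller differences were seen for Ighv1-52 and Ighv1-61 (5.44 and 2.03 FPKM, 98.6% identical), Ighv1-37 and Ighv1-20 (3.54 and 1.66 FPKM, 98.6%) and Igkv3-10 and Igkv3-5 (17.4 and 7.10 FPKM, 98.3%). These pairs were chosen after their values were seen. How reads that match several segments were assigned is not given in the sources used here, so the values of single members of such pairs are uncertain. Just inside the limit of 1 FPKM were Igkv4-51 (1.00), Igkv3-11 (1.03) and Igkv7-33 (1.05 FPKM), and just outside were Igkv3-1 (0.941), Igkv9-123 (0.868) and Igkv8-34 (0.821 FPKM).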

How the data were processed

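The authors deposited 1 table of FPKM per gene for 25 poly(A)-selected RNA libraries of distal colon, 5 mice in each of 5 genotypes. The submitters' processing notes name TopHat2 2.0.10, Cufflinks 2.1.1, DESeq2 1.10.1 and the build GRCm38, without roles. The annotation release and the handling of reads that match several segments are not given in the sources used here, and absolute depth is unknown.

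Differences were tested with limma 3.58.1 (R 4.3.3, trend, empirical Bayes, two-sided) on log2(FPKM + 0.5), for genes that reached 0.2 FPKM in 5 or more libraries, in 1 model of 5 genotype means with 20 residual degrees of freedom. Benjamini-Hochberg adjustment ran over all 19266 genes, with a threshold of 0.05. A log2 difference on this scale understates the change of low genes. Totals and shares were summed in Python 3.11.15, and identities came from edlib 1.3.9.post1. The script was tested on simulated data.

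The members and lists were chosen with earlier results of these data known. Named were the 5 heavy and 5 kappa members with the highest mean, every lambda member, segments ranking first in a library, the 3 most changed each way per main comparison, members at the limit, and set companion genes. Same-numbered libraries of different genotypes were not treated as pairs. Their deviations had a median correlation of 0.0071 over 50 pairs, against 0.0086 over 200 pairs with other numbers. These values do not show how the mice were numbered. Alternatives changed the pseudocount, filter, scaling, members, library code and block, or left out 1 library.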

Additional observations from a re-analysis of the deposited data

Results flagged for a closer look

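Of 90 sets of 5 libraries examined, 13 had a library whose gap to its nearest neighbour took most of the range of its group. Chance gives about 1 in 20 for independent, normally distributed values. Totals and shares were examined without a log and the sets share libraries, so no excess over that rate is read from these counts. The Nemofl/fl group supplied the first ones through replicate 1. Its summed V level was 2770 FPKM against 432 to 599.6 in the other controls, its heavy chain share of V RNA 42.7% against 35.0% to 36.6%, its Igkv10-96 level 108 FPKM against 18.9 to 22.3, and its Iglv1 level 34.0 FPKM against 8.01 to 11.0. Nemofl/fl replicate 3 had 3.05 FPKM of Iglv3 against 0.723 to 1.03.

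Single double mutant libraries stood apart in light chain use and dominance. The lambda share of light chain V RNA was 19.6% in Il12b-/- replicate 5 against 4.20% to 7.06%, and 15.3% in Il12a-/- replicate 4 against 7.99% to 9.90%. The top heavy segment held 26.3% in Il12a-/- replicate 5 against 7.73% to 11.7%. Igkv1-110 was at 108 FPKM in Il12a-/- replicate 1 against 8.80 to 14.4.

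Some libraries stood apart in a single segment. Igkv12-44 was at 210.3 FPKM in NEMOIEC-KO replicate 2 against 19.5 to 21.9. In Il23a-/- libraries the odd value was the low one: Ighv1-53 at 25.1 FPKM in replicate 2 against 84.0 to 122, Ighv1-26 at 8.42 FPKM in replicate 2 against 49.7 to 98.3, and Ighv1-80 at 14.3 FPKM in replicate 1 against 32.1 to 35.8.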

How the results depend on the processing

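No named call changed direction under any alternative run, and no count of called segments did where both counts were above 0. The direction of differences between group means of totals and shares was not checked in this way. The mean share of the top heavy segment was 13.0% in Il12a-/-, above the 10.3% of Nemofl/fl. Without Il12a-/- replicate 5 it was 9.62%, below that of Nemofl/fl. The count of segments called moved by over 1.5 times in these cases, and the cause was not tested. Without the filter on low values it was 3 (6 as reported) for Il12b-/- and 16 (26) for Il12a-/- against NEMOIEC-KO, 29 (45) for Il23a-/- against Nemofl/fl and 2 (4) for Il12a-/- against Il23a-/-. Within the library code K002000079 it was 3 for Il12b-/- and 3 for Il12a-/- against NEMOIEC-KO, where only NEMOIEC-KO replicates 1 and 2 remain. With a pseudocount of 0.1, and with quantile normalization, it was 1 (0) for Il12a-/- against Nemofl/fl and 1 (0) for Il12b-/- against Il12a-/-. With replicate number as a replicate block it was 1 (0) for Il12b-/- against Il12a-/-. The replicate block moved no other count by that much, giving 56 (60) for NEMOIEC-KO against Nemofl/fl, 6 (6) for Il12b-/- and 22 (26) for Il12a-/- against NEMOIEC-KO, and 41 (45) for Il23a-/- against Nemofl/fl. Replicate numbers were not taken to pair the mice in the main fit.

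Leaving out each library in turn gave 34 to 77 called segments for NEMOIEC-KO against Nemofl/fl, and 2 to 11, 9 to 57 and 0 to 0 for Il12b-/-, Il12a-/- and Il23a-/- against NEMOIEC-KO. Against Nemofl/fl it gave 0 to 1 for Il12b-/-, 0 to 1 for Il12a-/- and 23 to 62 for Il23a-/-. It gave 0 to 2 for Il12b-/- against Il23a-/-, 1 to 33 for Il12a-/- against Il23a-/- and 0 to 2 for Il12b-/- against Il12a-/-. Each refit changes the calls over all genes as well, and those are not set beside these counts. Group means of the V total then ran from 516 to 1101 FPKM in Nemofl/fl and from 3453 to 5484 in NEMOIEC-KO, and those of the lambda share from 3.09% to 3.80% and from 8.49% to 10.5%. Of 30 named segment calls, 20 were lost under at least 1 alternative. Of 58 named calls of other genes, 29 were. FPKM without counts gives no counting error per value, and the spread between 5 mice per genotype limits every comparison.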
